A study of Oryza sativa with 156 samples.

Results

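Rice genes for 4 late embryogenesis abundant (LEA) proteins other than dehydrins were followed in drying leaves: OsLEA3-1 (LOC_Os05g46480), OsLEA3-2 (LOC_Os03g20680), WSI18 (LOC_Os01g50910) and EMP1 (LOC_Os05g28210). They were taken by name and identifier, not by their values, and are 4 of the 55986 identifiers in the count table. By their identifiers WSI18 lies on chromosome 1, OsLEA3-2 on chromosome 3, and OsLEA3-1 and EMP1 on chromosome 5. Leaves of the rice cultivar IR64 were sampled daily from day 0 to day 12 in a severe and a moderate drought course, each with irrigated controls of its own. In severe drought the pots stood above the level of the hose and drained quickly, in moderate drought the supply was cut 14 days after sowing and the pots drained at hose level, and in controls irrigation went on. All plants grew from germinated seeds planted singly in self-irrigating pots in a growth chamber. With 3 libraries in each of 52 groups by course, arm and day, either arm of either course had 39 libraries.

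LEA proteins are mostly small, very hydrophilic and mostly unfolded in solution. They accumulate in seeds as these dry and, for some members, in leaves and roots that lose water, where they are thought to protect proteins and membranes during dehydration. Many of their genes are switched on through abscisic acid (ABA), the hormone that signals water deficit. OsLEA3-1, OsLEA3-2 and WSI18 are group 3 LEA proteins, and WSI18 was named for its induction by water stress. OsLEA3-1 and OsLEA3-2 are known from transgenic work on drought tolerance in rice. EMP1 is the Em protein, a group 1 LEA protein of the late embryo whose gene is activated in seeds by the factors VP1 and TRAB1.

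All 4 genes were near the floor of detection in most of these libraries, and they did not move alike. WSI18 rose late in drought: on days 9-12 all 12 severe drought libraries and all 12 moderate drought libraries held reads of it, against 1 of 12 severe control and 4 of 12 moderate control libraries. OsLEA3-2 tested lower in drought on days 1-4 and 3-5 of the severe course and days 5-8 of the moderate course. There, single irrigated libraries held up to 94 reads and drought libraries mostly 0 to 3. Each severe test result was lost when a single high control library was left out. The moderate one lost its standard error and its call without control replicate 3 of day 6, which left that group at 0. It stayed called without control replicate 3 of day 5 or replicate 2 of day 7, and ended without every replicate 3 library. OsLEA3-1 never exceeded 6 reads in a library, and EMP1 had 4 reads in the whole series.

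The total count per library ranged from 6.42 to 26.2 M (M for mega), with medians of 15.2 M in severe drought, 12.3 M in severe control, 17.8 M in moderate drought and 18.3 M in moderate control. Levels are given as counts, or as CPM, counts per 1 M of the scaled total. A count of 0 in a single library allows a level of up to 0.114 to 0.467 CPM, depending on its total, if 3 counts are taken as the limit. Intervals and limits of this kind cover counting error only. Where the arms are said not to overlap on a day, 3 libraries stand against 3, and the share of all genes that do so was not counted. In bulk leaf samples, fewer cells that express a gene and less RNA per cell cannot be told apart. Nothing in the labels ties replicates to different plants, and p-values therefore cover only the variation among the libraries themselves, which may be technical.

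Some features of the series bear on what follows. All 11684 identifiers of chromosomes 10, 11 and 12 had a count of 0 in every library, for a reason that was not tested, while 41413 of the 44117 on the other chromosomes had a count. The 4 LEA genes lie on chromosomes with counts. Libraries fell into a higher set of 49 and a lower set of 107 by the level of 3 genes named in earlier results of these data, and the severe arms lay in the same set on days 3 to 5 only. The severe replicate 3 libraries of day 6 looked crossed between the arms by some genes but not by all. The control library of these lay in the higher set, like the other severe controls of that day. LOC_Os09g36680, chosen for its large fall in drought, stood there at 39.5, 1.35 and 935 CPM in drought and at 1515, 124 and 10.0 CPM in control, while LOC_Os02g15860, chosen for its rise, did not look crossed at 4.59, 4.42 and 10.6 CPM in drought and 1.05, 2.01 and 0.757 CPM in control. Results on stretches that include severe day 6 are therefore given with and without these libraries. The 2 leaf marker loci that could be used had median summed levels of 14003 CPM in severe drought, 12249 CPM in severe control, 20089.6 CPM in moderate drought and 15150 CPM in moderate control. The 4 seed marker loci that could be used summed to between 0.922 and 4.58 CPM over all libraries. Of these, 3 never exceeded 5 counts in a library. The remaining locus had reads in every library, with up to 75 counts and a median of 2.10 CPM.

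Detection separated the 4 genes. OsLEA3-2 had 869 counts in all and at least 1 in 103 libraries, WSI18 had 345 counts in 74 libraries, OsLEA3-1 had 94 counts in 55 libraries, and EMP1 had 4 counts in 4 libraries. The total was at or above that of 59.5% of all identifiers for OsLEA3-2, 55.2% for WSI18, 47.4% for OsLEA3-1 and 18.9% for EMP1. The highest count in a single library was 102 for OsLEA3-2, 60 for WSI18, 6 for OsLEA3-1 and 1 for EMP1. Only OsLEA3-2 and WSI18 passed the filter on low counts and entered the fit across all genes. Gene lengths were not at hand, so the levels are not compared between genes.

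**Figure D1:**
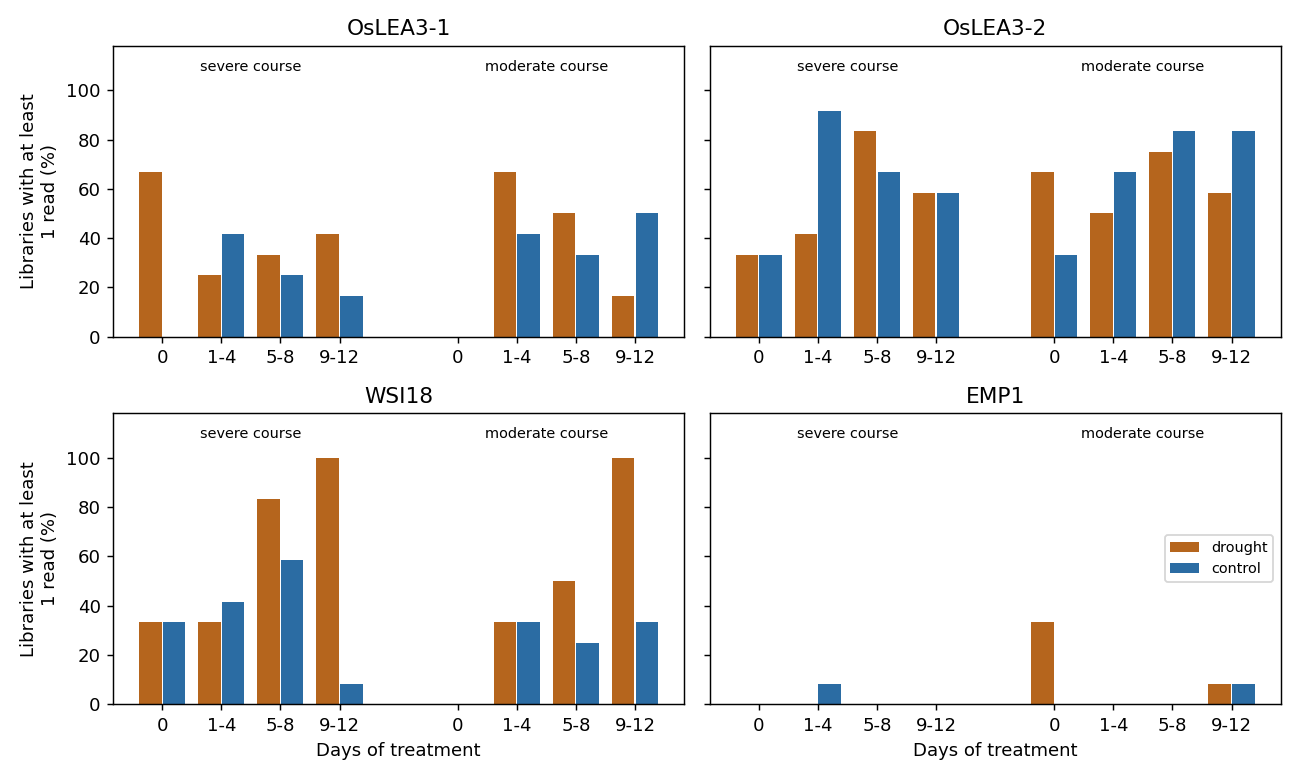
Share of libraries with at least 1 read (%, vertical axis) for each of the 4 LEA genes by days of treatment (horizontal axis), with the severe course on the left and the moderate course on the right of each panel, and drought bars beside control bars. Each bar covers 12 libraries, or 3 on day 0. WSI18 reached 12 of 12 drought libraries in both courses on days 9-12, against 1 of 12 severe control and 4 of 12 moderate control libraries, while EMP1 had a read in 4 libraries of the whole series, 1 of them on day 0.

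OsLEA3-1 was the least informative of the group 3 genes. Over days 1-12 it averaged 0.0412 ± 0.083 CPM in severe drought and 0.0328 ± 0.0651 CPM in severe control (SD, n = 36 each). Without the replicate 3 libraries of day 6 the severe averages were 0.0424 ± 0.0839 CPM in drought and 0.0283 ± 0.0602 CPM in control (SD, n = 35 each). In the moderate course it averaged 0.0439 ± 0.0623 CPM in drought and 0.0355 ± 0.0509 CPM in control (SD, n = 36 each). The differences between the arms, and between the courses, were smaller than the spread between libraries. On day 0 severe drought had 1, 0 and 1 counts and severe control had none, and both moderate arms had none.

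On days 9-12 of the severe course OsLEA3-1 had 15 counts in 5 of 12 drought libraries and 2 counts in 2 of 12 control libraries, a pooled ratio of 5.07 (95% interval 1.18 to 45.7). Of those 15 counts, 5 came from replicate 2 of day 9 and 6 from replicate 3 of day 12. On the same days of the moderate course it had 2 counts in drought and 13 in control, a ratio of 0.161 (0.0176 to 0.709). The courses thus pointed in opposite directions on these days. A two-sided permutation test of the mean CPM shuffled the arms within each day. This permutation test gave p = 0.14 for the severe and p = 0.068 for the moderate course. Neither p-value was adjusted for the other such comparisons made. Without the filter on low counts, the edgeR quasi-likelihood fit gave a log2 fold change of 2.11 (SE 0.99, adjusted p = 0.144) for severe drought on days 9-12, and the moderate contrast could not be fitted because whole groups were at 0. Over days 6-12 of the severe course the ratio was 2.04 (0.827 to 5.70), and 4.65 (1.38 to 24.4) without the replicate 3 libraries of day 6, of which the control library held 4 counts. No library stood above 6 counts, so these ratios turn on single reads.

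OsLEA3-2, the group 3 protein with the most reads, was high in a few libraries and near 0 in the rest. At least 25 counts were found in 10 libraries, which held 616 of its 869 counts (70.9%). The next libraries had 18 and 9 counts, and the limit of 25 was set after the values were seen. Of these 10 libraries 9 were irrigated controls and 1 was a drought library. The drought library was replicate 3 of severe day 1, with 33 counts. The severe control libraries were replicate 2 of day 1 with 62 counts, replicate 2 of day 3 with 37 and replicate 1 of day 5 with 94. In moderate control they were replicate 3 of day 5 with 93 counts, replicate 3 of day 6 with 37, replicates 2 and 3 of day 7 with 55 and 59, and replicates 1 and 3 of day 11 with 102 and 44. Their totals of 11.2 to 26.2 M lay within the range of all libraries. The other libraries of the same groups had 0 to 9 counts. The SD exceeded the mean in the groups with 1 high library, while moderate control averaged 2.26 ± 1.89 CPM on day 7 and 2.98 ± 2.91 CPM on day 11, where 2 of 3 libraries were high (SD, n = 3 each).

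**Figure D2:**
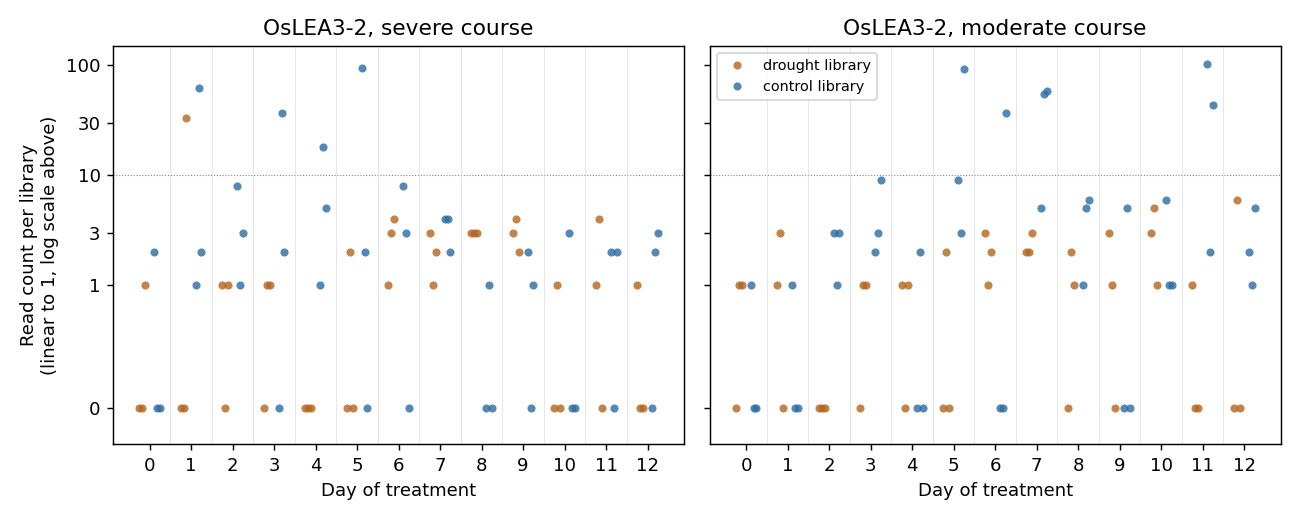
Read count of OsLEA3-2 in each library (vertical axis, linear to 1 and log scale above) by day of treatment (horizontal axis), severe course on the left and moderate course on the right, with drought points to the left of control points on each day. The dotted line marks 10 counts. The libraries at 33 counts or more are 1 drought library, on severe day 1, and 9 control libraries.

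In the severe course OsLEA3-2 stood lower in drought than in control early, though it was near 0 in both arms on day 0. Day 0 counts were 0, 0 and 1 in drought and 2, 0 and 0 in control. The arms lay in different library sets on days 1 and 2, and the part of the set was not tested. On days 1-4 the lowest, median and highest counts were 0, 0 and 33 in drought and 0, 2.5 and 62 in control, with reads in 5 of 12 drought and 11 of 12 control libraries. The ranges overlapped. It averaged 0.200 ± 0.585 CPM in drought and 0.927 ± 1.49 CPM in control (SD, n = 12 each), and the log2 fold change was -3.37 (SE 0.93, edgeR quasi-likelihood adjusted p = 0.00135), or -1.97 with days as blocks (SE 0.60, edgeR adjusted p = 0.00394). In that contrast 47.4% of the 19338 genes tested were called at an adjusted p under 0.05. The value of -3.37 depends on how the fit treats the drought group of day 4, which was at 0. The call ended without control replicate 2 of day 1 (adjusted p = 0.0801) or of day 3 (adjusted p = 0.116). It held in 10 of 13 alternatives, among them the fit with the library set difference taken out. The permutation test gave p = 0.12, or p = 0.025 without the drought library of 33 counts. The pooled ratio was 0.349 with that library and 0.0421 without it.

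Days 3-5 are the days on which both severe arms lay in the same library set. OsLEA3-2 had counts of 0, 1 and 1 on day 3, none on day 4 and 0, 2 and 0 on day 5 in drought. In control it had 0, 37 and 2 on day 3, 1, 18 and 5 on day 4 and 94, 2 and 0 on day 5. The arms did not overlap on day 4 and overlapped on days 3 and 5. On day 4 control stood at 6.72 times the limit set by 3 counts over the 3 drought libraries. The error of the control counts is not in this value, and the day was not called (edgeR adjusted p = 0.0697). Over days 3-5 it averaged 0.0374 ± 0.0652 CPM in drought and 1.61 ± 2.79 CPM in control (SD, n = 9 each). The log2 fold change was -5.49 (SE 1.0, edgeR quasi-likelihood adjusted p = 3.28e-06), in a contrast that called 39.4% of all genes. It depends on how the fit treats the drought group of day 4, which was at 0 (log2 fold change of that day -6.40, SE 2.55). The permutation test gave p = 0.016. Leaving out control replicate 2 of day 3 gave an adjusted p of 0.0571, and leaving out control replicate 1 of day 5 gave 0.0686, so the call needs both libraries.

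After day 5 the severe arms came together. From day 6 on they lay in different library sets, and the part of the set in this was not tested. Over all days OsLEA3-2 averaged 0.350 ± 1.02 CPM in the lower set (SD, n = 107) and 0.422 ± 1.31 CPM in the higher set (SD, n = 49). On days 5-8 OsLEA3-2 had 0, 2.5 and 4 counts in drought and 0, 2 and 94 in control as lowest, median and highest. The log2 fold change was -1.26 (SE 1.39, edgeR quasi-likelihood adjusted p = 0.530), where 28.5% of genes were called. A fit with 1 drought term per stretch and the days as blocks, added after the data were seen, gave -2.25 (SE 0.68, edgeR adjusted p = 0.00754). The pooled ratio was 0.169 (0.105 to 0.262) and became 0.763 (0.418 to 1.40) without control replicate 1 of day 5. Without the replicate 3 libraries of day 6 the ratio was 0.138 (0.0824 to 0.221) and the edgeR log2 fold change -1.61 (adjusted p = 0.422). On day 8 the arms did not overlap, with 3 counts in every drought library and 0, 1 and 0 in control, a ratio of 7.72 (1.07 to 338). On days 9-12 it averaged 0.0751 ± 0.0953 CPM in drought and 0.102 ± 0.101 CPM in control (SD, n = 12 each), with reads in 7 of 12 libraries of each arm. There the log2 fold change was -0.80 (SE 1.14, edgeR quasi-likelihood adjusted p = 0.594), and 44.7% of genes were called. The change between early and late, days 9-12 minus days 1-4, was 2.57 on the log2 scale (SE 2.09, edgeR adjusted p = 0.331) and was not called, against 43.7% of genes called.

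In the moderate course the high control libraries came later, on days 5 to 7 and day 11. On day 0 OsLEA3-2 had 0, 1 and 1 counts in drought and 1, 0 and 0 in control. On days 1-4 OsLEA3-2 had 0, 0.5 and 3 counts in drought and 0, 1.5 and 9 in control as lowest, median and highest. The log2 fold change was -1.29 (SE 1.48, edgeR quasi-likelihood adjusted p = 0.507), with 42.5% of genes called, while the permutation test gave p = 0.05 and the pooled ratio was 0.364 (0.141 to 0.837). The arms did not overlap on day 2, with no counts in drought and 3, 1 and 3 in control, or on day 3, with 0, 1 and 1 in drought and 2, 3 and 9 in control. On days 3-5 it was -2.57 (SE 1.54, edgeR adjusted p = 0.194), with 32.5% called. There it averaged 0.0405 ± 0.0462 CPM in drought and 0.831 ± 1.89 CPM in control (SD, n = 9 each), and the permutation test, unlike the fit, gave p = 0.007. On days 5-8 the counts were 0, 2 and 3 in drought and 0, 5.5 and 93 in control as lowest, median and highest. It averaged 0.0891 ± 0.0637 CPM in drought and 1.31 ± 1.89 CPM in control (SD, n = 12 each). The log2 fold change was -3.36 (SE 0.71, edgeR quasi-likelihood adjusted p = 9.39e-05), with 28.7% of genes called, and the permutation test gave p = 0.003. Without control replicate 3 of day 6, which leaves that control group at 0, the fit had no usable standard error and no longer called it (log2 fold change -1.78, edgeR adjusted p = 0.996). The permutation p stayed at 0.003. The call held without control replicate 3 of day 5 (-2.73, edgeR adjusted p = 0.00239) or replicate 2 of day 7 (-3.33, edgeR adjusted p = 0.000148). Without every replicate 3 library the call ended as well (log2 fold change -0.76, SE 7.49, edgeR adjusted p = 0.968). The arms did not overlap on day 5, with 0, 2 and 0 counts in drought and 9, 3 and 93 in control. Nor did they on day 7, with 2, 2 and 3 counts in drought and 5, 55 and 59 in control.

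On days 9-12 of the moderate course OsLEA3-2 had 20 counts in drought and 169 in control, of which day 11 held 1 in drought and 148 in control. The arms did not overlap on day 11, with 1, 0 and 0 counts in drought and 102, 2 and 44 in control. It averaged 0.0934 ± 0.114 CPM in drought and 0.836 ± 1.80 CPM in control (SD, n = 12 each). The log2 fold change was -1.71 (SE 0.94, edgeR quasi-likelihood adjusted p = 0.182), with 23.9% of genes called, and the permutation test gave p = 0.17. With days as blocks the fit gave -2.71 (SE 0.69, edgeR adjusted p = 0.00152). The pooled ratio was 0.123, or 0.288 without control replicate 1 of day 11. The late minus early difference was -0.41 on the log2 scale (SE 2.61, edgeR adjusted p = 0.942) and was not called, where 19.7% of genes were.

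Day by day, OsLEA3-2 was called lower in drought on severe days 3 and 5 and on moderate days 5, 7 and 11. The log2 fold changes were -4.49 and -5.58 in the severe course (edgeR adjusted p = 0.0206 and 0.00291), on days that called 18.7% and 9.23% of genes. In the moderate course they were -5.39, -4.08 and -6.76 (edgeR adjusted p = 0.00272, 0.00418 and 0.000215), on days that called 12.7%, 4.62% and 5.55%. Each of these days has a control library of at least 37 counts. On severe day 1, where a drought and a control library were both high, the log2 fold change was -0.85 (SE 0.78, edgeR adjusted p = 0.412). Over days 1-12 it averaged 0.137 ± 0.34 CPM in severe drought and 0.641 ± 1.62 CPM in severe control, and 0.0727 ± 0.082 CPM in moderate drought and 0.752 ± 1.54 CPM in moderate control (SD, n = 36 each). Without the replicate 3 libraries of day 6 the severe averages were 0.134 ± 0.345 CPM in drought and 0.659 ± 1.64 CPM in control (SD, n = 35 each). The order from high to low was moderate control, severe control, severe drought and moderate drought, and no step between neighbours exceeded the larger of their SDs.

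WSI18, the group 3 protein named for water stress, had few reads at first and reads in every drought library at the end. On day 0 it had 1, 0 and 0 counts in severe drought and 1, 0 and 0 in severe control, and none in either moderate arm. On days 1-4 the lowest, median and highest counts were 0, 0 and 5 in severe drought and 0, 0 and 10 in severe control. In the moderate course they were 0, 0 and 2 in drought and 0, 0 and 3 in control. Neither course passed the test there. The severe log2 fold change was -1.26 (SE 1.07, edgeR quasi-likelihood adjusted p = 0.342). The moderate contrast could not be fitted because whole groups were at 0, and with days as blocks it was -0.48 (SE 0.90, edgeR adjusted p = 0.702).

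**Figure D3:**
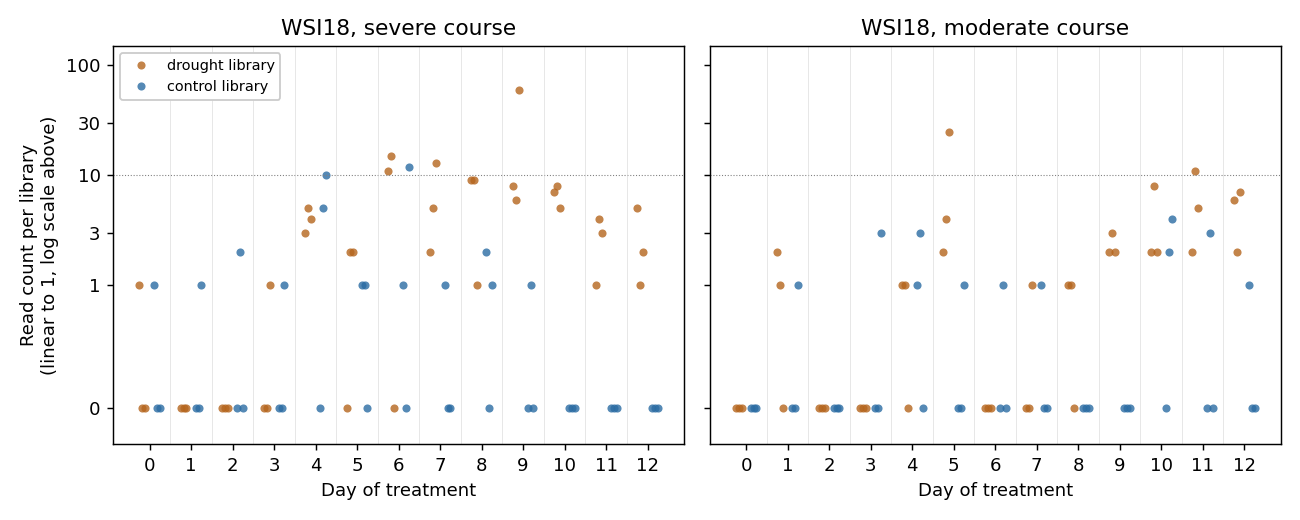
Read count of WSI18 in each library (vertical axis, linear to 1 and log scale above) by day of treatment (horizontal axis), severe course on the left and moderate course on the right, with drought points to the left of control points on each day. The dotted line marks 10 counts. From day 9 on every drought library of both courses lies at 1 count or more, while the severe control libraries lie at 0 except 1 of them on day 9.

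In the severe course day 4 was the first day with reads in every library of a group. Counts were 3, 5 and 4 in drought and 0, 5 and 10 in control, and the arms overlapped. Over days 3-5, within 1 library set, WSI18 averaged 0.149 ± 0.152 CPM in drought and 0.174 ± 0.276 CPM in control (SD, n = 9 each). The permutation test gave p = 0.76, and the pooled ratio was 0.940 (0.455 to 1.93). The irrigated level varied from day to day, with 15 counts on day 4, 1 count on day 3 and 2 counts on day 5.

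On days 5-8 of the severe course WSI18 rose in drought. The lowest, median and highest counts were 0, 3.5 and 15 in drought and 0, 1 and 12 in control. It averaged 0.330 ± 0.284 CPM in drought and 0.0971 ± 0.158 CPM in control (SD, n = 12 each), with a log2 fold change of 1.78 (SE 0.65, edgeR quasi-likelihood adjusted p = 0.0307) and a permutation p of 0.018. That contrast called 28.5% of genes. Counts on day 6 were 11, 15 and 0 in drought and 1, 0 and 12 in control, so the replicate 3 libraries of that day ran against the others of their arm. Without them the log2 fold change was 2.53 (SE 0.71, edgeR adjusted p = 0.00305), the permutation p 0.0017 and the pooled ratio 7.64 (3.52 to 19.7), against 2.90 (1.72 to 5.10) with them. The call ended without the filter on low counts (log2 fold change 1.79, edgeR adjusted p = 0.0635), without replicate 1 (2.61, adjusted p = 0.0594) and without replicate 2 (1.31, adjusted p = 0.359). The severe arms lay in different library sets from day 6 on. With the set difference taken out the value was 0.28, with no usable standard error because whole groups were at 0, and the call was lost.

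On days 9-12 of the severe course the arms did not overlap for WSI18 on any day, and the share of all genes that did so was not counted. The drought libraries were deeper, at 216 M counts together against 146 M in control. In drought the WSI18 counts were 8, 6 and 60 on day 9, then 7, 8 and 5, then 1, 4 and 3, and 5, 1 and 2 on day 12. In control they were 0, 1 and 0 on day 9 and 0 in all 9 libraries of days 10 to 12. It averaged 0.514 ± 0.906 CPM in drought and 0.00715 ± 0.0248 CPM in control (SD, n = 12 each). The pooled counts of 110 in drought and 1 in control give a ratio of 74.3 (95% interval 13.1 to 2962). The log2 fold change was 4.88 (SE 0.91, edgeR quasi-likelihood adjusted p = 3.98e-06) and depends on how the fit treats control groups at 0. That contrast called 44.7% of genes. Without drought replicate 3 of day 9, the library of 60 counts, the ratio was 36.8 (6.30 to 1480.5) and the log2 fold change 4.45 (SE 0.88, edgeR adjusted p = 1.51e-05). The permutation p was 1e-05 with and without it, the smallest that 100000 shuffles can give. On single days it was called on day 9 with 5.41 (SE 1.0, edgeR adjusted p = 0.000167) and on day 10 with 5.61 (SE 1.79, edgeR adjusted p = 0.0316), on days that called 11% and 8.97% of genes. With 3 counts over the 3 control libraries as the limit, drought stood at 4.44, 1.87 and 1.65 times that limit on days 10, 11 and 12. The error of the drought counts is not in these values. Days 11 and 12 were not called (edgeR adjusted p = 0.150 and 0.207).

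The severe change on days 9-12 also differed from that on days 1-4. The difference was 6.14 on the log2 scale (SE 1.79, edgeR quasi-likelihood adjusted p = 0.00288), in a contrast that called 43.7% of genes. It depends on how the fit treats groups at 0, which were drought on days 1 and 2 and control on days 10 to 12. It could not be fitted without replicate 2 or without replicate 3, and stayed called without replicate 1 (6.47, edgeR adjusted p = 0.0123). The drought libraries lay in the lower set and the control libraries in the higher set on days 9-12, and with the set difference taken out the values were 2.88 for days 9-12 and 3.14 for late minus early, both with no usable standard error and no longer called. Over all days WSI18 averaged 0.150 ± 0.371 CPM in the lower set (SD, n = 107) and 0.0832 ± 0.166 CPM in the higher set (SD, n = 49). The part of the set in the severe result was not tested.

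In the moderate course both arms lay in the lower set from day 1, and WSI18 rose there too. On days 9-12 its counts in drought were 2, 3 and 2, then 2, 8 and 2, then 2, 11 and 5, and 6, 2 and 7 on day 12. In control they were 0 on day 9, then 0, 2 and 4, then 0, 3 and 0, and 1, 0 and 0 on day 12. The arms did not overlap on days 9 and 12, overlapped on day 10, and on day 11 overlapped in counts but not in CPM. It averaged 0.224 ± 0.124 CPM in drought and 0.0391 ± 0.0672 CPM in control (SD, n = 12 each). The pooled ratio was 5.43 (2.73 to 12.0), the log2 fold change 2.82 (SE 0.68, edgeR quasi-likelihood adjusted p = 0.000801) and the permutation p 0.00015. That contrast called 23.9% of genes. Unlike the severe arm, no single library dominated, since the highest held 11 of 52 counts.

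On days 5-8 of the moderate course the reads of WSI18 sat on 1 day. Drought had 2, 4 and 25 counts on day 5, none on day 6, 0, 0 and 1 on day 7 and 1, 1 and 0 on day 8. Control had 3 counts over the same 12 libraries, 1 each on days 5, 6 and 7. The pooled ratio was 12.6 (3.96 to 64.1), or 3.67 (0.915 to 21.1) without drought replicate 3 of day 5, and the permutation p 0.028, or 0.10 without it. The contrast of the stretch could not be fitted with 1 mean per group, and with days as blocks it was 2.94 (SE 0.78, edgeR adjusted p = 0.00208). On day 5 alone the arms did not overlap, and the log2 fold change was 4.55 (SE 1.15, edgeR adjusted p = 0.00613), on a day that called 12.7% of genes. Over days 3-5 it was 0.29 (SE 0.80, edgeR adjusted p = 0.817). The late minus early difference could not be fitted either, and with days as blocks it was 2.79 (SE 1.19, edgeR adjusted p = 0.0866) and was not called.

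**Figure D4:**
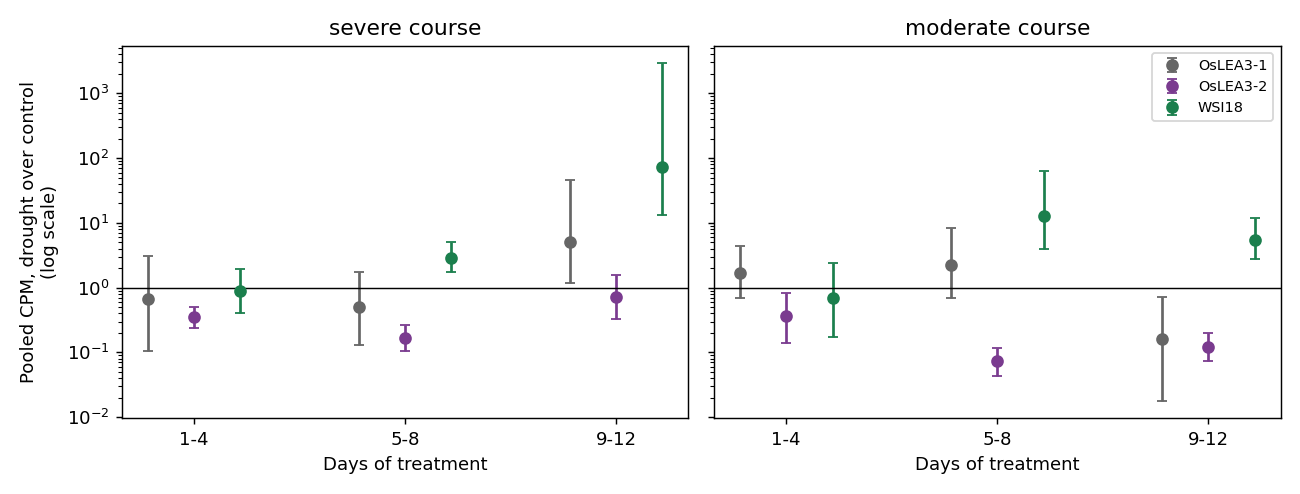
Ratio of pooled CPM, drought over control (log scale, vertical axis), for OsLEA3-1, OsLEA3-2 and WSI18 by days of treatment (horizontal axis), severe course on the left and moderate course on the right. Points pool 12 libraries per arm and bars are exact 95% intervals that cover counting error only, so they are narrower than the spread between libraries. WSI18 lies above 1 on days 5-8 and 9-12 of both courses, and OsLEA3-2 lies below 1 in every stretch of both courses, with an interval that includes 1 on severe days 9-12.

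Whether the courses differed was tested directly, as the severe change minus the moderate change. OsLEA3-2 was not called on days 3-5 (log2 difference -2.91, SE 2.21, edgeR adjusted p = 0.614), days 5-8 (2.10, SE 1.36, adjusted p = 0.598) or days 9-12 (0.90, SE 2.03, adjusted p = 0.826). These contrasts called 2.24%, 0.533% and 11% of genes. Without the severe replicate 3 libraries of day 6 the OsLEA3-2 difference on days 5-8 was 1.75 (SE 1.38, edgeR adjusted p = 0.660). Days 1-4, where 0.414% were called, could not be fitted for either gene, and with days as blocks the OsLEA3-2 difference was -0.61 (SE 1.97, edgeR adjusted p = 0.923). For WSI18 the difference was -0.25 on days 3-5 (SE 0.74, edgeR adjusted p = 0.937). Days 5-8, with or without those libraries, and days 9-12 could not be fitted with 1 mean per group. With days as blocks, WSI18 had a difference of -1.47 on days 5-8 (SE 0.90, edgeR adjusted p = 0.589) and 2.89 on days 9-12 (SE 1.23, edgeR adjusted p = 0.113). The standard errors are wide, so a difference of several fold between the courses was not detectable at this depth.

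Over days 1-12 WSI18 averaged 0.311 ± 0.567 CPM in severe drought and 0.0782 ± 0.174 CPM in severe control (SD, n = 36 each). Without the replicate 3 libraries of day 6 these were 0.319 ± 0.573 CPM in drought and 0.0642 ± 0.155 CPM in control (SD, n = 35 each). In the moderate course it averaged 0.135 ± 0.229 CPM in drought and 0.0292 ± 0.0538 CPM in control (SD, n = 36 each). The order from high to low was severe drought, moderate drought, severe control and moderate control, and no step between neighbours exceeded the larger of their SDs. Reads were found in 26 of 36 severe drought, 13 of 36 severe control, 22 of 36 moderate drought and 11 of 36 moderate control libraries. After thinning every library to 6.42 M counts, with day 0 included, 23 of 39 severe drought and 10 of 39 severe control libraries had a read, and 18 and 5 in the moderate course.

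EMP1, the Em protein of the embryo, had almost no reads in the leaf data. No read was found in the 39 severe drought libraries, which allows a pooled level of up to 0.00531 CPM. Severe control had 1 read, in replicate 1 of day 4. Moderate drought had 2 reads, in replicate 3 of day 0 and replicate 2 of day 9, and moderate control had 1, in replicate 2 of day 10. No group had more than 1 read, so no difference between drought and control was detectable at this depth. In single libraries a count of 0 would allow up to 0.467 CPM in the shallowest library.

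The genes whose pattern over all libraries was most like each tested member were found by Pearson's r of log2 CPM over the 19338 genes tested. They are known here by identifier only, and the libraries share groups and differ in depth, so r is a description. For OsLEA3-2 they were LOC_Os01g58670 (r = 0.84), LOC_Os03g18250 (r = 0.83) and LOC_Os01g32280 (r = 0.81). LOC_Os01g58670 had a median of 4.11 CPM (0.253 to 14.5) in the 10 libraries with at least 25 counts of OsLEA3-2 and 0 CPM (0 to 0.885) in the other 146. LOC_Os03g18250 had 5.95 CPM (1.01 to 14.3) and 0.0510 CPM (0 to 1.91) in the same libraries, and LOC_Os01g32280 had 42.6 CPM (25.0 to 54.3) and 17.7 CPM (9.90 to 30.2). The genes were chosen for this likeness, so their high levels in those libraries follow from the choice. In replicate 3 of moderate control day 6 all 3 lay within the range of the other libraries, at 0.253, 1.01 and 25.0 CPM. Taken as deviations from the group means r was 0.81, 0.81 and 0.81, so the likeness was also present between replicates of a group. By rank the likeness was lower, with Spearman's rho of 0.50, 0.44 and 0.56, which placed the 3 genes 418, 861 and 63 among all genes. Within the moderate drought libraries, of which 0 held 25 counts of OsLEA3-2, r was -0.06, 0.14 and 0.24. Within the severe drought libraries, of which 1 did, r was 0.61, 0.56 and 0.63.

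For WSI18 the most like genes were LOC_Os06g35960 (r = 0.58), LOC_Os04g51130 (r = 0.57) and LOC_Os02g47580 (r = 0.57). On days 9-12 LOC_Os06g35960 had medians of 10.6 CPM in severe drought, 2.79 CPM in severe control, 7.72 CPM in moderate drought and 3.64 CPM in moderate control. LOC_Os04g51130 had 7.49 CPM in severe drought, 4.80 CPM in severe control, 5.82 CPM in moderate drought and 4.69 CPM in moderate control. LOC_Os02g47580 had 52.2 CPM in severe drought, 37.0 CPM in severe control, 50.1 CPM in moderate drought and 33.1 CPM in moderate control. The arms overlapped in both courses for LOC_Os06g35960 and LOC_Os04g51130, and in the moderate course for LOC_Os02g47580. Spearman's rho for the 3 genes was 0.52, 0.55 and 0.52. As deviations from the group means r was 0.19, 0.22 and 0.39, lower for each of the 3 genes than over the libraries as they stand. WSI18 and OsLEA3-2 themselves had r = -0.08 and rho = -0.03 over all libraries.

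Genes of ABA signalling, which acts upstream of many LEA genes, are given for comparison as counts over lists of loci from general knowledge of the rice annotation. Clade A PP2C phosphatases, which hold the pathway off and are themselves ABA-induced, had 8 of 9 loci tested. In severe drought 5, 4 and 4 of the 8 rose on days 1-4, 5-8 and 9-12, in moderate drought 6, 4 and 6 rose, and none fell. Their median log2 fold changes were 0.50, 0.28 and 0.29 in the severe and 0.38, 0.23 and 0.55 in the moderate course, where the median of all genes lay between -0.02 and 0.02. Among all genes 23.4%, 14.1% and 22% rose in the severe and 21.1%, 14.2% and 12.3% in the moderate stretches. Of 8 SAPK kinases tested, of 10, which the phosphatases restrain, 3, 2 and 1 rose and 0, 1 and 4 fell in the severe stretches. In the moderate stretches 6, 2 and 2 rose and 0, 1 and 1 fell. Among all genes 24%, 14.5% and 22.7% fell in the severe and 21.4%, 14.5% and 11.6% in the moderate stretches. Of the ABA-responsive bZIP factors and VP1, which bind or act at LEA promoters, 5 of 7 were tested, and 3, 2 and 2 rose in the severe and 4, 1 and 3 in the moderate stretches. In that list 1 fell on severe days 1-4 and 1 each on moderate days 5-8 and 9-12. Of the dehydrins, the other large LEA class, 5 of 8 loci lie on the chromosomes without counts. Of the 3 tested, 2 fell on severe days 1-4 and 1 rose on severe days 9-12, and none was called in the other stretches.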

How the data were processed

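Leaf polyA RNA of 156 samples was sequenced from directional libraries, per the labels' protocols. The authors deposited raw counts of reads for each gene. STAR, featureCounts 2.0.0 and the build IRGSP-1.0 are named in the submitters' processing notes. The strand setting is not given in the sources used here, so overlapping or near-identical genes can share counts. Of the count table's columns, 4 match no sample and were not used. The table holds identifiers only: the names of the 4 genes came with their identifiers for this work, and loci of the ABA, dehydrin and marker lists are from general knowledge. A list of other LEA genes could not be placed, and no sequence was at hand. The members and lists were chosen with earlier results of these data known.

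The tests used edgeR 4.0.16 (R 4.3.3). The filter was filterByExpr (minimum count 10, minimum total 15), passed by 19338 genes, with TMM scaling. All libraries entered 1 quasi-likelihood model of 52 groups (104 residual degrees of freedom). Contrasts were means over days of drought minus control, single days, late minus early, and severe minus moderate. P-values were adjusted by the Benjamini-Hochberg method across the genes that passed, and a call is an adjusted p under 0.05. A mean of logs over days has no test where groups of only zeros stand on both sides of a contrast, and such contrasts are given as not fitted. Pooled ratios have exact 95% binomial intervals, and permutation tests of the mean CPM used 100000 shuffles. Only the edgeR fit of the late severe contrast was tested on simulated data. The permutation tests, pooled intervals, day blocks and the fit with the library set taken out were not. How the edgeR fit performs for genes with whole groups at 0 or with single high libraries was not tested.

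The genes named are the 4 members and the 3 genes most like each tested member by Pearson's r of log2 CPM (prior count 2). Genes named for day 6 were chosen after their values were seen. Alternatives were DESeq2 size factors, no filter, a replicate block, either edgeR or DESeq2 1.42.0 fitted to just the libraries of a comparison, leaving out each replicate number, taking out the library set, leaving out severe day 6 replicate 3, and thinned counts. Day blocks, permutation tests and leaving out single libraries of at least 25 counts were added after the data were seen.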

Additional observations from a re-analysis of the deposited data

Results flagged for a closer look

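The drought change of WSI18 in the severe course differed between days 9-12 and days 1-4 by 6.14 on the log2 scale (SE 1.79, edgeR quasi-likelihood adjusted p = 0.00288). This was a direct test of the difference between the stretches, and it could not be fitted without replicate 2 or without replicate 3. Its value depends on how the fit treats groups at 0, here drought on days 1 and 2 and control on days 10 to 12. The same contrast called 43.7% of the 19338 genes tested. In drought WSI18 had 110 counts in 12 of 12 libraries on days 9-12 and 13 counts in 4 of 12 on days 1-4, while control had 1 count in 1 of 12 and 19 counts in 5 of 12. The library sets of the arms changed between these stretches, and their part in the difference was not tested. With the set difference taken out the value was 3.14, with no usable standard error, and was no longer called.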

How the results depend on the processing

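WSI18 on days 9-12 stayed called in the moderate course under all 7 alternatives that gave a value (2.32 to 3.14 on the log2 scale, adjusted p 0.000637 to 0.0373). In the severe course it stayed called under 8 of 9, without 1 replicate number at 4.33 to 5.51, and could not be fitted with the library set taken out (2.88). On severe days 5-8 it was 0.28 with the set taken out, not fitted, 1.79 without the filter (adjusted p = 0.0635), and 1.31 to 2.61 without 1 replicate number. The severe late minus early difference was 3.14 with the set taken out, not fitted, and 4.95 to 6.47 without 1 replicate number, called without replicate 1 and not fitted without replicate 2 or 3. With days as blocks WSI18 was 2.94 on moderate days 5-8. The severe minus moderate difference of WSI18 was 0.029 on days 1-4 and -1.47 on days 5-8 with days as blocks, and 0.38 and -1.13 with the set taken out. Without moderate drought replicate 3 of day 5, WSI18 on moderate days 3-5 was -0.19. Without 1 replicate number it was -1.25 to 0.70 on moderate days 1-4, -0.17 to 1.48 on moderate days 3-5, -0.020 to 0.28 on severe days 3-5, and the severe minus moderate difference was -1.19 to 0.19 on days 3-5 and -0.40 to 1.10 on days 5-8. Its days called numbered 2 in the severe course, 0 with edgeR on the libraries compared only (the filter then removed it) or the set taken out, 1 without the filter and 1 to 2 without 1 replicate number, and 1 in the moderate course, 0 to 1 without 1 replicate number.

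OsLEA3-2 on moderate days 5-8 was -1.78 without control replicate 3 of day 6, with no usable standard error. It was -4.31 to -0.76 without 1 replicate number, with the call ended without replicate 3. On severe days 1-4 it was -2.41 without control replicate 2 of day 1, -2.48 without control replicate 2 of day 3, and -5.58 to -1.05 without 1 replicate number (not called without replicate 2). On severe days 3-5 it was -4.30 without control replicate 2 of day 3, -3.90 without control replicate 1 of day 5, and -5.65 to -4.07 without 1 replicate number (not called without replicate 1 or 2). With days as blocks it was -2.71 on moderate days 9-12 and -2.25 on severe days 5-8. Without 1 replicate number it was -1.78 to 0.28 on severe days 5-8, -2.03 to 0.0069 on severe days 9-12 and -0.98 to 5.29 for severe late minus early. The severe minus moderate difference was then -4.40 to 0.15 on days 1-4, -1.02 to 4.03 on days 5-8 and -0.0013 to 1.89 on days 9-12. Its days called, 2 in the severe course and 3 in the moderate course, became 1 to 3 and 1 to 2. Causes were not tested beyond the fewer libraries left. After thinning, reads remained in 28 of 55 libraries for OsLEA3-1, 77 of 103 for OsLEA3-2, 56 of 74 for WSI18 and 1 of 4 for EMP1.

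The replicate numbers did not pair the samples: on 0 of 26 day pairs did every correlation of deviations exceed 0.1, and the median was -0.0016. With a replicate block no call of the 2 genes changed, and the value of WSI18 on severe days 3-5 was -0.028 (0.036 without the block).

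Genes called over the whole table moved by over 1.5 times in some settings. Their lowest and highest were 3104 and 6822 on moderate days 3-5 (6281 in the fit reported), 2971 and 5721 on days 5-8 (5553), 2611 and 4949 on days 9-12 (4624), and 1600 and 5026 for late minus early (3801). In the severe course they were 4055 and 7782 on days 3-5 (7621), 2213 and 6698 on days 5-8 (5513), 4403 and 8755 on days 9-12 (8642), and 4171 and 8601 for late minus early (8460). For severe minus moderate they were 6 and 242 on days 1-4 (80), 5 and 478 on days 3-5 (434), 45 and 129 on days 5-8 (103), and 182 and 2317 on days 9-12 (2127). No contrast of stretches used day 0, so leaving out the moderate drought library of day 0, replicate 2, was not run. Depth limits these results, since most libraries hold fewer than 10 counts of any of the 4 genes, and so do the 3 libraries a group.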
